A study of Mus musculus with 8 samples.

Results

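Superoxide dismutases, catalase, peroxiredoxins and the thiol oxidase Qsox1 were examined in the quadriceps of mice aged 3 months with and without muscle Gpcpd1, a glycerophosphodiesterase that splits glycerophosphocholine. The 10 genes Sod1, Sod2, Sod3, Cat, Prdx1, Prdx2, Prdx3, Prdx5, Prdx6 and Qsox1 were taken by mouse symbol from 54532 genes, and each symbol matched 1 Ensembl gene. All 10 passed the filter on low counts, which left 10691 genes for testing. RNA from whole muscle was sequenced from the 3′ ends of polyadenylated transcripts (QuantSeq FWD), in 4 control and 4 knockout libraries. Both groups carried the floxed Gpcpd1 allele and ate chow. Controls were negative for Mck-Cre, and knockouts were Mck-Cre positive, so the Cre transgene and the loss of Gpcpd1 differed together. Mck-Cre is driven by the muscle creatine kinase promoter, which is active in striated muscle fibres, so other cells of the muscle are not its target.

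Superoxide leaks from the respiratory chain and from oxidases and is converted to hydrogen peroxide by superoxide dismutases. Sod1 acts in the cytosol with copper and zinc, Sod2 in the mitochondrial matrix with manganese, and Sod3 outside the cell. Hydrogen peroxide is then removed by catalase, mostly in peroxisomes, and by peroxiredoxins. The reactive cysteine of peroxiredoxins is oxidised by peroxide and, in most of them, reduced again by thioredoxin. Qsox1 works the other way round: it inserts disulfide bonds into proteins of the secretory pathway, passing electrons from thiols to oxygen and releasing hydrogen peroxide.

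Library totals ran from 4404116 to 5405999 reads and did not differ by genotype beyond their spread (exact two-sided permutation p = 0.343). More genes had at least 1 read in the knockout libraries (16986 to 17693) than in the controls (16606 to 16984; exact two-sided permutation p = 0.0286). The 50 most abundant genes took 47.0% to 47.4% of knockout reads against 44.1% to 46.9% of control reads (exact two-sided permutation p = 0.0286). Gpcpd1 fell, with 149.7 ± 10.7 CPM in controls and 35.1 ± 3.45 CPM in knockouts (CPM is a gene's reads scaled to a common library total with TMM factors; mean ± SD, n = 4 each). The fibre genes Ckm, Acta1 and Myh4, which define the tissue, stood at 12859 CPM or above in each library. Every library held between 647 and 885 reads of the Y-linked gene Ddx3y and at most 1 read of Xist. The labels do not say that the libraries came from separate mice, so each p-value is set against the spread of the libraries alone.

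Of the 10 genes, 3 rose in knockout muscle and 0 fell at an adjusted p of 0.05 in edgeR's quasi-likelihood test, against 15.7% of all tested genes called in either direction, 8.87% called higher and 6.8% called lower. DESeq2 also called 3 higher and 0 lower, against 774 higher and 631 lower among all 10691 tested genes. At an unadjusted p under 0.05 there were 6 higher and 0 lower, against 28.1% of all tested genes in either direction. The genes that rose were Qsox1, at 2.29 times the control level, and the peroxiredoxins Prdx2 and Prdx5, at 1.32 and 1.29 times. In the same 3 genes every knockout library lay above every control library. Among all tested genes 10.3% had their knockout libraries wholly above the controls, and 19.2% did not overlap in either direction. The median log2 fold change was 0.23 over the 10 genes and 0.01 over all tested genes. The fitted change was above 0 in 8 of the 10 genes and below 0 in 2, while it was above 0 in 50.9% of all tested genes. The 10 genes were chosen with earlier results of these data known, so these contrasts with all tested genes are a description. Under 17 alternative analyses the count of higher members was 3 or 4 and the count of lower members was 0.

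**Figure D1:**
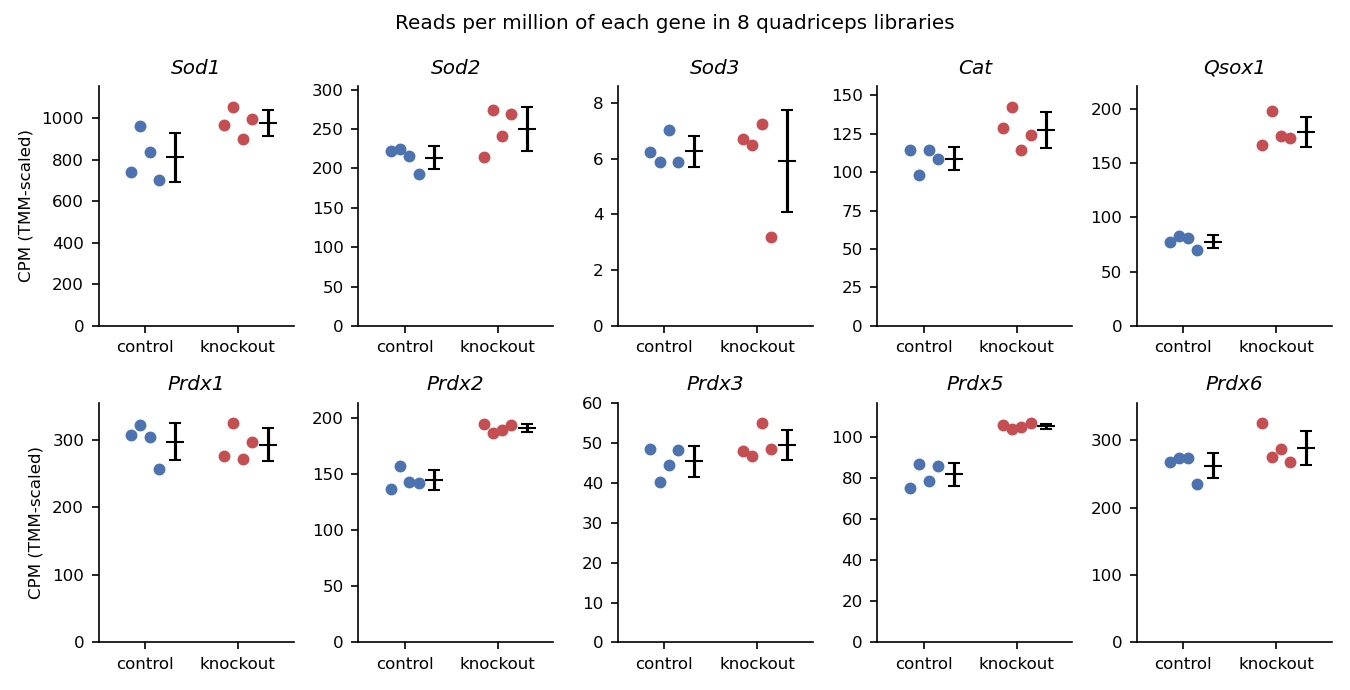
Each panel shows 1 gene, with the TMM-scaled CPM of each of the 4 control (blue) and 4 knockout (red) libraries as points and the mean ± SD as a bar beside them. The groups are apart in Qsox1, Prdx2 and Prdx5 and overlap in the other 7 genes.

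Qsox1, the sulfhydryl oxidase of the Golgi and the extracellular space, differed most. Its gene (ENSMUSG00000033684) lies on GRCm38 chromosome 1 at 155776029 to 155812889, minus strand. Controls 1 to 4 held 77.8, 82.7, 80.9 and 69.8 CPM of Qsox1. Knockouts 1 to 4 held 167.2, 198.4, 175.4 and 173.0 CPM. The lowest knockout library was thus far above the highest control, and the spread within each group was small (coefficient of variation 7.34% in controls and 7.69% in knockouts). The values rest on 332 to 1039 reads per library. The log2 fold change of Qsox1 was 1.20 (SE 0.09, 95% interval 1.02 to 1.38, edgeR adjusted p = 9.2e-10). It stood 14th of all tested genes by p, and 140 of the 948 genes called higher had a larger rise. On the Qsox1 level alone, exact permutation (two-sided) gave p = 0.0286, the smallest value that 4 against 4 libraries allow. No alternative ended the call, and the log2 fold change ran from 1.14 to 1.22.

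The stretch before the start of Qsox1 is shown because the gene had the strongest difference among the members. It is the 250 bases upstream of the RefSeq transcription start, GRCm38.p6 chr1:155812900-155813149, minus strand, written 5′ to 3′. Capitals mark the GC box GGGCGG, the letters bound by Sp1-type factors, which occurs here 3 times.
Qsox1: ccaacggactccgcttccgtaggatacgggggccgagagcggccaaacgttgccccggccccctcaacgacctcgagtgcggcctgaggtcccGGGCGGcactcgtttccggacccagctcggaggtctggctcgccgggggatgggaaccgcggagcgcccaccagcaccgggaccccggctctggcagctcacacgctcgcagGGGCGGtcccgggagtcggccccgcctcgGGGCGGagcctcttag
The GC box, read on both strands, was present in 32.7% of 32851 RefSeq promoter stretches of the same length. GC content was 73.6% in the Qsox1 stretch, against a median of 52.4%. The core of the antioxidant response element, TGACNNNGC, through which Nrf2 acts, was not found on either strand of this window, nor was the E-box CANNTG. The antioxidant core was present in 10.2% of all stretches and the E-box in 66.2%. Promoter stretches were held for 8 of the 10 genes. Among these the antioxidant core was found before Sod1 (GCGTGGTCA, reverse strand, 56 bases before the RefSeq start) and before Prdx1 (GCTGAGTCA, reverse strand, 133 bases before the start), and it was not found before Cat, Sod2, Prdx2, Prdx3 or Prdx5. The stretch taken for Sod2 lies inside the longer GENCODE gene model. GC boxes were found before Sod1 and Sod2 (4 each), Cat, Prdx1, Prdx3 and Prdx5 (1 each), and Prdx2 had 0.

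Of the superoxide dismutases, none passed the threshold. Sod1, the cytosolic enzyme (chromosome 16, 90220754 to 90226329, plus strand), was the most abundant of the 10 transcripts. Its controls 1 to 4 held 742.4, 964.9, 838.4 and 701.4 CPM. Its knockouts 1 to 4 held 965.7, 1051.8, 900.0 and 995.2 CPM. Of the knockout libraries 3 lay above all controls, while knockout 3 was below control 2, the highest control. The log2 fold change of Sod1 was 0.27 (SE 0.09, unadjusted 95% interval 0.07 to 0.46, edgeR adjusted p = 0.0554; exact permutation p = 0.0571). Sod1 lay close to the threshold: it passed in 5 of 17 alternatives, among them limma voom (adjusted p = 0.0483), library totals alone (0.0408) and the analysis without control 2 (0.00554), and over all alternatives its adjusted p ran from 0.00554 to 0.165.

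Sod2, the matrix enzyme (chromosome 17, 13006846 to 13040063, plus strand), held 221.8, 224.4, 215.6 and 192.7 CPM in controls 1 to 4. Knockouts 1 to 4 held 214.5, 274.8, 241.4 and 269.4 CPM of Sod2. Knockout 1 stayed within the control range and the other 3 lay above it. For Sod2 the log2 fold change was 0.23 (SE 0.09, unadjusted 95% interval 0.04 to 0.41, edgeR adjusted p = 0.0926), and without knockout 1 it passed the threshold at 0.29 (adjusted p = 0.0236). Sod3, the extracellular enzyme (chromosome 5, 52363791 to 52371418, plus strand), was the least abundant member, with 15 to 39 reads per library. It held 6.25, 5.88, 7.05 and 5.88 CPM in controls 1 to 4 and 6.70, 6.49, 7.25 and 3.20 CPM in knockouts 1 to 4. Only knockout 4 stood outside the range of the other libraries on the low side. Sod3 had a log2 fold change of -0.08 with a 95% interval of -0.55 to 0.40 (edgeR adjusted p = 0.874). Changes in either direction within that interval are compatible with these data.

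The division of superoxide dismutase reads among the 3 genes, which does not depend on library scaling, overlapped between groups for each gene. Sod1 took 78.5% ± 1.79 of these reads in controls and 79.3% ± 1.41 in knockouts (SD, n = 4 each). Sod2 took 20.8% ± 1.73 and 20.2% ± 1.47. Sod3 took 0.613% ± 0.0815 and 0.484% ± 0.165.

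Catalase, encoded by Cat (chromosome 2, 103453849 to 103485160, minus strand), degrades hydrogen peroxide without a thiol cofactor. Controls 1 to 4 held 114.4, 98.3, 114.3 and 108.2 CPM of Cat. Knockouts 1 to 4 held 128.6, 142.3, 114.1 and 124.2 CPM. Of the knockouts 3 lay above all controls, and knockout 3 was at the level of the 2 highest controls. Cat had a log2 fold change of 0.23 (SE 0.09, unadjusted 95% interval 0.04 to 0.41, edgeR adjusted p = 0.0906; exact permutation p = 0.0857), and it did not pass in any of the 17 alternatives.

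Among the peroxiredoxins, Prdx2 and Prdx5 rose, and Prdx1, Prdx3 and Prdx6 did not pass the threshold. Prdx2, a cytosolic peroxiredoxin (ENSMUSG00000005161, chromosome 8, 84969587 to 84974834, plus strand), held 137.2, 157.3, 142.7 and 141.9 CPM in controls 1 to 4. Knockouts 1 to 4 held 195.0, 186.6, 189.9 and 193.9 CPM of Prdx2. The knockout libraries lay within a narrow band, with a coefficient of variation of 2.03% against 6.01% in controls, and above every control. The log2 fold change of Prdx2 was 0.40 (SE 0.08, 95% interval 0.24 to 0.57, edgeR adjusted p = 0.000937), and it passed in all 17 alternatives, with adjusted p-values up to 0.00674.

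A Junb transcript on the opposite strand shares 173 exon bases with Prdx2, between 178 and 350 bases from the 3′ end of Prdx2, where 3′ reads can fall. The strand setting of the counting is not given in the sources used here, so the Prdx2 count is uncertain. Junb held 57 to 152 reads per library, against 637 to 1022 reads of Prdx2. Its log2 fold change was -0.37 (SE 0.24, edgeR adjusted p = 0.362).

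Prdx5, found in mitochondria, peroxisomes and cytosol (ENSMUSG00000024953, chromosome 19, 6906697 to 6910106, minus strand), held 75.2, 87.0, 78.7 and 85.8 CPM in controls 1 to 4. Knockouts 1 to 4 held 105.8, 103.7, 104.6 and 106.4 CPM of Prdx5. As in Prdx2, the knockouts were close together (coefficient of variation 1.17% against 6.92% in controls) and above every control. Prdx5 had a fitted log2 fold change of 0.36 (SE 0.08, 95% interval 0.19 to 0.54, edgeR adjusted p = 0.00368), and it passed in all 17 alternatives, with adjusted p-values up to 0.0225. The start of Prdx5 overlaps that of Trmt112 on the opposite strand, and the start of Prdx2 overlaps that of Rnaseh2a in the same way. Trmt112 had a log2 fold change of 0.05 (SE 0.17, 95% interval -0.31 to 0.40) and Rnaseh2a one of -0.03 (SE 0.17, 95% interval -0.39 to 0.33), so neither divergent neighbour passed the threshold.

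Prdx1, the most abundant peroxiredoxin (chromosome 4, 116685544 to 116700822, plus strand), held 306.3, 322.3, 303.3 and 257.0 CPM in controls 1 to 4 and 276.1, 325.2, 271.8 and 296.5 CPM in knockouts 1 to 4. These ranges covered each other almost completely. For Prdx1 the log2 fold change was -0.02 with a 95% interval of -0.21 to 0.16 (edgeR adjusted p = 0.902), so the interval holds neither the rise fitted for Prdx2 nor that for Prdx5. The difference between Prdx1 and these genes was not tested. Prdx3, the matrix peroxiredoxin (chromosome 19, 60864051 to 60874556, minus strand), held 48.5, 40.3, 44.4 and 48.3 CPM in controls 1 to 4 and 48.0, 46.8, 55.0 and 48.4 CPM in knockouts 1 to 4, with overlapping groups (log2 fold change 0.13, 95% interval -0.08 to 0.33, edgeR adjusted p = 0.435). Prdx6 (chromosome 1, 161240112 to 161251219, minus strand), which uses a single reactive cysteine and also has phospholipase activity, held 267.1, 273.2, 273.9 and 235.0 CPM in controls 1 to 4. Knockouts 1 to 4 held 325.1, 275.2, 287.4 and 267.9 CPM of Prdx6, with knockout 1 highest and knockout 4 within the control range (log2 fold change 0.14, 95% interval -0.04 to 0.32, edgeR adjusted p = 0.311). The annotated copies Prdx6b, Prdx6-ps2 and Prdx2-rs3 had 0 reads in all libraries. Copies were looked for by name only, so any under other names were not examined. The treatment of multi-mapping reads is not given, so these zeros do not show that the counts of the members are unaffected by copies.

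**Figure D2:**
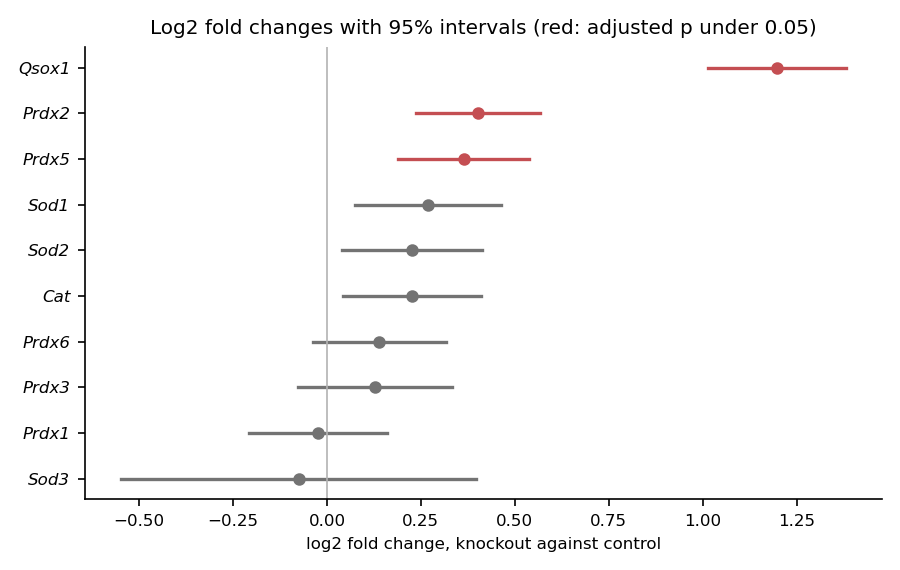
Points are log2 fold changes of knockout against control for the 10 genes and lines are unadjusted 95% intervals from the edgeR fit; red marks an adjusted p under 0.05. Qsox1 stands apart at 1.20, and Prdx2 and Prdx5 follow at 0.40 and 0.36. The intervals of Sod1, Sod2 and Cat begin just above 0 and include the values of Prdx2 and Prdx5.

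The makeup of the 5 peroxiredoxin transcripts shifted towards Prdx2. Prdx2 took 16.4%, 17.9%, 16.9% and 18.5% of peroxiredoxin reads in controls 1 to 4, and 20.5%, 19.9%, 20.9% and 21.2% in knockouts 1 to 4, so the groups did not overlap. Prdx5 took 9.85% ± 0.949 in controls and 11.3% ± 0.288 in knockouts, with control 4 (11.2%) just above the lowest knockout (11.1%). Prdx1 took 35.7% ± 1.52 and 31.5% ± 2.55 (SD, n = 4 each), with overlapping groups. Prdx3 and Prdx6 took shares that differed between genotypes by less than 1 SD. Summed over the 5 genes, controls held 768.0 to 880.1 CPM and knockouts 908.7 to 950.0 CPM.

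**Figure D3:**
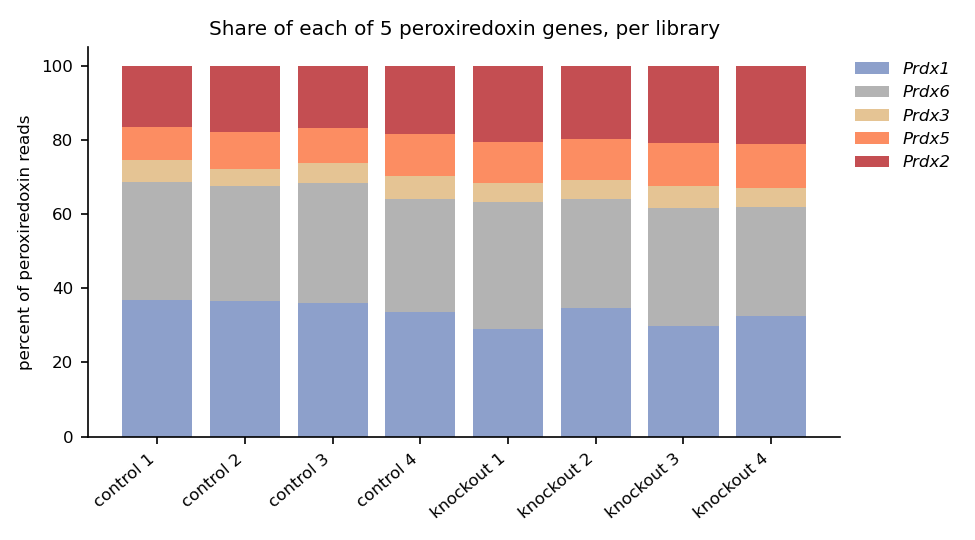
Stacked bars give the share of each of 5 peroxiredoxin genes in their summed reads, in percent, for each library. The Prdx2 share is 16.4% to 18.5% in the 4 controls and 19.9% to 21.2% in the 4 knockouts.

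Because each 3′ read stands for 1 transcript end, CPM values can be set side by side between genes without a length term. Genes can still differ in how well each end is captured and in reads lost to similar sequences elsewhere. The treatment of multi-mapping reads is not given, and the order below was corrected for neither. By mean CPM in controls the order was Sod1, Prdx1, Prdx6, Sod2, Prdx2, Cat, Prdx5, Qsox1, Prdx3 and Sod3. In controls the ranges of Prdx1 and Prdx6 overlapped, as did those of Prdx5 and Qsox1, and all other neighbours were separate. In knockouts Qsox1 moved up to the sixth place, above Cat and Prdx5. Its range there (167.2 to 198.4 CPM) overlapped that of Prdx2 and lay above that of Cat. The ranges of Prdx1 and Prdx6, and those of Prdx6 and Sod2, overlapped in knockouts as well. In controls Sod1 was more abundant than 99.0% of tested genes and Sod3 more abundant than 27.9%.

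By a root mean square difference over the 8 libraries, computed on log2 CPM after subtraction of each gene's control mean, the 5 genes closest to Qsox1 among 9648 were Msrb1, Hint2, Hnmt, Npdc1 and BC048679. Msrb1, a selenoprotein that reduces oxidised methionine, was closest, with a difference of 0.0894 against a median of 0.876 over all genes compared. It stood at 116.8 ± 6.73 CPM in controls and 262.2 ± 19.3 CPM in knockouts (mean ± SD of 4 libraries each; log2 fold change 1.17, SE 0.08). Hint2, a mitochondrial nucleotide hydrolase, followed at 0.150, with 49.3 ± 4.53 and 103.2 ± 9.54 CPM. Hnmt, which methylates histamine, differed by 0.162, Npdc1 by 0.166 and BC048679 by 0.175. Hnmt and Npdc1 were low in controls, at 2.32 and 5.59 CPM. These genes were chosen by their likeness, so their fold changes are a description.

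**Figure D4:**
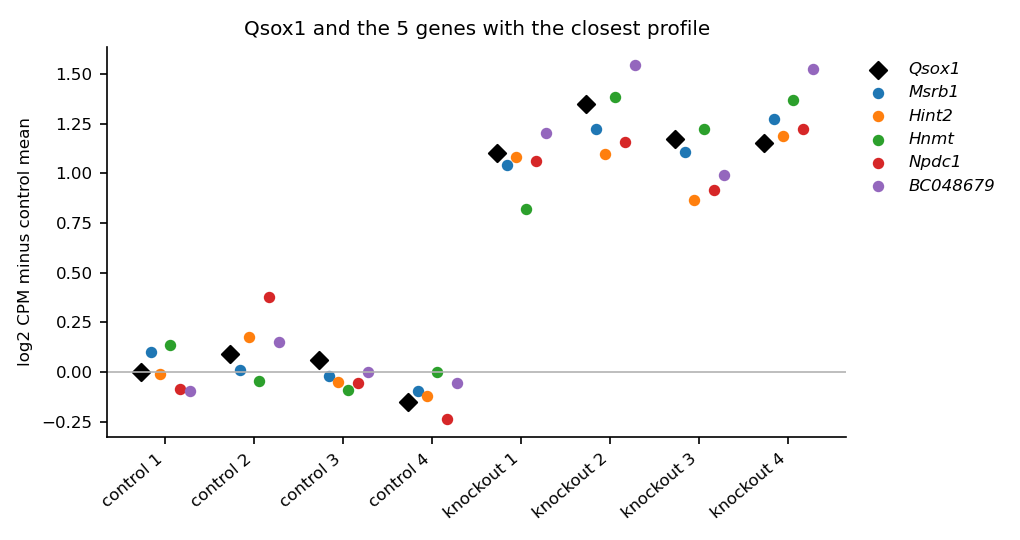
Points are log2 CPM minus the gene's control mean in each of 8 libraries, for Qsox1 (black diamonds) and the 5 genes with the smallest root mean square difference from it. All 6 genes lie near 0 in controls and most of their knockout points lie around 1 or above.

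The enzymes around these genes were described with 7 lists holding 131 distinct genes, of which 113 were tested. Of the 113, 11 were higher and 9 lower, a share of 17.7% called against 15.7% of all tested genes, and their median log2 fold change was 0.01. The count of higher genes fell to 6 without control 2, knockout 2 or knockout 4 and to 7 without control 3 or knockout 3, and it was 6 with library totals alone and 7 by DESeq2.

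Among genes that recycle thioredoxin and peroxiredoxins, 1 of 18 tested was higher and 2 were lower (median log2 fold change 0.00). Txn1, the cytosolic thioredoxin that reduces peroxiredoxins, rose, with 38.5 ± 3.26 CPM in controls and 51.9 ± 7.71 CPM in knockouts (mean ± SD of 4 libraries each; log2 fold change 0.43, SE 0.11, edgeR adjusted p = 0.00792). Txnrd1, the cytosolic thioredoxin reductase that recharges Txn1, fell, with 57.8 ± 8.85 CPM in controls and 36.2 ± 1.32 CPM in knockouts (log2 fold change -0.67, SE 0.11, edgeR adjusted p = 9.1e-05). The 2 partners thus moved in opposite directions. Glrx3, an iron-sulfur glutaredoxin, fell, with 66.9 ± 5.75 CPM in controls and 54.1 ± 4.13 CPM in knockouts (log2 fold change -0.31, SE 0.10, edgeR adjusted p = 0.0278), a call that ended in 5 of 17 alternatives (without control 2 or 4 and without knockout 2, 3 or 4). The number of higher genes was 2 without knockout 1, with Sesn1, a sestrin, as the added gene (log2 fold change 0.54, edgeR adjusted p = 0.0154, against 0.38 and 0.147 with all libraries).

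In glutathione synthesis and peroxidases 1 of 20 tested genes was higher and 3 were lower. Gpx3, the secreted glutathione peroxidase, fell, with 201.3 ± 9.01 CPM in controls and 92.0 ± 7.07 CPM in knockouts (mean ± SD of 4 libraries each; log2 fold change -1.13, SE 0.09). Gstm1, a glutathione transferase, fell, with 69.7 ± 5.74 CPM in controls and 53.3 ± 3.03 CPM in knockouts; mu-class transferases are similar in sequence, so its count is uncertain. Gsta4, which conjugates lipid peroxidation products, rose, with 6.85 ± 1.44 CPM in controls and 12.2 ± 1.20 CPM in knockouts (log2 fold change 0.82, SE 0.18). The number of higher genes was 3 without control 1 and 2 without control 4 or knockout 1.

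Of 9 tested sources of superoxide and hydrogen peroxide, 1 was higher and 1 lower, and 7 of the 16 listed genes were too low to test. Maob, a mitochondrial amine oxidase that releases hydrogen peroxide, fell, with 72.1 ± 6.55 CPM in controls and 33.1 ± 8.61 CPM in knockouts (mean ± SD of 4 libraries each; log2 fold change -1.12, SE 0.13, edgeR adjusted p = 8.7e-06). Aox1, an aldehyde oxidase, rose, with 16.3 ± 0.678 CPM in controls and 29.3 ± 2.33 CPM in knockouts (log2 fold change 0.85, SE 0.12, edgeR adjusted p = 1.9e-05).

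Among genes for disulfide formation, the wider group of Qsox1, 1 of 13 tested was higher and 0 were lower by edgeR and by DESeq2 (3 and 0 at an unadjusted p under 0.05). The higher gene was Gfer, a sulfhydryl oxidase of the mitochondrial intermembrane space, which rose, with 114.6 ± 17.7 CPM in controls and 155.8 ± 10.9 CPM in knockouts (mean ± SD of 4 libraries each; log2 fold change 0.44, SE 0.10, edgeR adjusted p = 0.00264). Qsox2, the paralogue of Qsox1, had 5 to 12 reads per library and was not tested.

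In the supply of copper, manganese and haem 3 of 14 tested genes were higher and 0 lower by edgeR (2 and 0 by DESeq2, 4 and 2 at an unadjusted p under 0.05). Alad, an early enzyme of haem synthesis, rose, with 33.2 ± 3.11 CPM in controls and 48.5 ± 2.73 CPM in knockouts (mean ± SD of 4 libraries each; log2 fold change 0.55, SE 0.10, edgeR adjusted p = 0.000490). Alas1, which catalyses the first step of that pathway, had a log2 fold change of 0.45 (SE 0.15, edgeR adjusted p = 0.0356), and Ccs, the chaperone that loads copper into Sod1, one of 0.37 (SE 0.12, edgeR adjusted p = 0.0397). The calls of these last 2 genes were weak: Alas1 missed the threshold in 7 of 17 alternatives and Ccs in 11, with all 8 analyses that left out a library among the 11. The list's count of higher genes was 1 without control 2, control 3, knockout 2 or knockout 4, and with library totals alone.

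Of 22 tested peroxisome genes, which include the machinery that imports catalase, 4 were higher and 1 was lower. Pex13, a docking protein of the import pore, rose, with 6.59 ± 0.754 CPM in controls and 10.6 ± 2.03 CPM in knockouts (mean ± SD of 4 libraries each; log2 fold change 0.69, SE 0.19, edgeR adjusted p = 0.0121), and missed the threshold without knockout 3 (0.0720). Pex11a, which promotes peroxisome division, had a log2 fold change of -0.26 (SE 0.08), and Abcd3, a peroxisomal fatty acyl transporter, one of 0.35 (SE 0.11). Pex11a missed the threshold in 4 of 17 alternatives and Abcd3 in 9. The count of higher genes was 1 or 2 in 10 of 17 alternatives, including all analyses without a library other than control 1, and the lower gene was lost without control 1, control 3, knockout 1 or knockout 3.

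Of 22 tested regulators and targets of Nrf2, the transcription factor that raises many antioxidant genes, 0 were higher and 3 lower by edgeR, by DESeq2 and at an unadjusted p under 0.05 (median log2 fold change -0.06). Txnrd1 belongs to this list too. Cul3, the scaffold of the ligase that degrades Nrf2, fell, with 165.7 ± 9.87 CPM in controls and 133.3 ± 8.22 CPM in knockouts (mean ± SD of 4 libraries each; log2 fold change -0.31, SE 0.08, edgeR adjusted p = 0.0104). Osgin1, an oxidative stress response gene, had a log2 fold change of -0.59 (SE 0.18, edgeR adjusted p = 0.0292), which missed the threshold without control 3 or 4 and without knockout 1, 3 or 4.

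**Figure D5:**
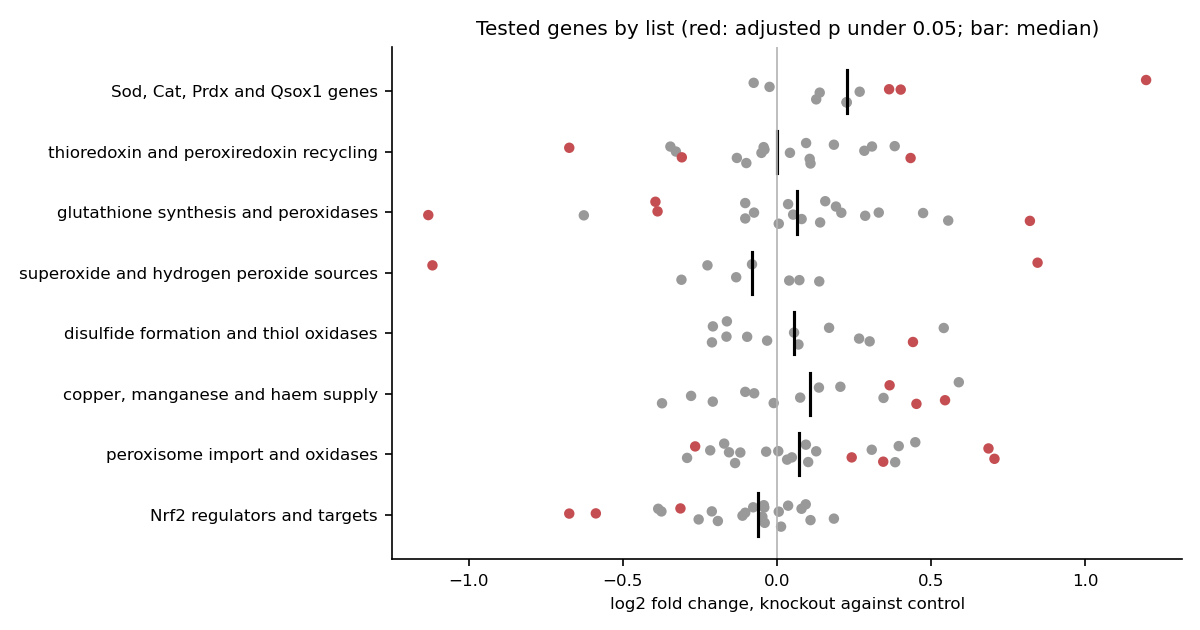
Each point is the log2 fold change of 1 tested gene, by list, with genes at an adjusted p under 0.05 in red and the list median as a black bar. The median of the 10 genes lies at 0.23 and those of the 7 related lists between -0.08 and 0.11. The 10 genes and the lists were chosen with earlier results of these data known.

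Whole muscle holds several cell types, and fewer cells of a type cannot be told apart from less RNA per cell. Each marker list below was summed in CPM per library, and its part in the results above was not tested. No marker was without reads in all 8 libraries. Of the slow fibre markers 2 of 5 tested genes were higher, Myl3 and Casq2, and the sum of the 9 listed genes was 53.4 to 105.2 CPM in controls and 208.8 to 507.8 CPM in knockouts. The gap between the sums came from Myl3, a slow myosin light chain (7.75 to 33.4 CPM in controls and 148.1 to 398.4 CPM in knockouts, highest in knockout 1). Without Myl3, left out after its values were seen, the other 8 genes summed to 45.7 to 71.8 CPM in controls and 60.8 to 109.3 CPM in knockouts, which overlap. Tnnt1, Atp2a2 and Tpm3 were not called, with log2 fold changes of 1.09 (SE 0.89), -0.14 and -0.03. Tnni1, Tnnc1 and Myl2 were too low to test. Tnni1 held 0.196 to 0.431 CPM in controls and 0.557 to 2.72 CPM in knockouts, while the groups overlapped in Tnnc1 and Myl2. Myh7, the slow myosin heavy chain, was too low to test, with 0 to 3.36 CPM in controls, 3.56 CPM in knockout 1 and 0.372 to 0.427 CPM in the other knockouts. Fast and general fibre markers had 2 of 10 higher and 1 lower by edgeR (3 and 1 by DESeq2, 5 and 2 at an unadjusted p under 0.05). Their sums overlapped (151401 to 173443 and 165720 to 172536 CPM). Acta1 and Mylpf were higher. Myh4, a fast myosin heavy chain, was lower, with 48304 ± 2030 CPM in controls and 38879 ± 2646 CPM in knockouts. The myosin heavy chains Myh2 and Myh1 had log2 fold changes of 1.46 (SE 0.41, edgeR adjusted p = 0.0644) and 0.67 (SE 0.24, edgeR adjusted p = 0.112).

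Markers of fibro-adipogenic progenitors, which secrete matrix proteins, had 0 of 10 higher and 2 lower by edgeR, Pi16 and Dcn. At an unadjusted p under 0.05, 0 were higher and 5 lower, and the median log2 fold change was -0.23. These markers summed to 1194 to 1447 CPM in controls and 930.5 to 1231 CPM in knockouts. Macrophage markers had 0 of 8 tested genes higher and 3 lower by edgeR (0 and 4 at an unadjusted p under 0.05, median log2 fold change -0.49). They summed to 93.7 to 155.5 CPM in controls and 66.6 to 110.4 CPM in knockouts. Red cell precursors and red cells are rich in Prdx2 and catalase; of the erythroid markers 0 of 6 tested were called by edgeR or DESeq2, also at an unadjusted p under 0.05, and their sums were 749.7 to 965.0 and 627.6 to 970.3 CPM. Neither edgeR nor DESeq2 called a gene among 10 endothelial, 10 smooth muscle and pericyte, 9 adipocyte and 6 Schwann cell and nerve markers tested (1, 1, 1 and 0 had an unadjusted p under 0.05), and the sums of these 4 lists overlapped between groups. These were 570.3 to 659.2 CPM in controls and 536.6 to 623.3 in knockouts for endothelium and 4407 to 6095 and 4366 to 5355 for smooth muscle and pericytes. For adipocytes they were 501.4 to 688.6 and 578.0 to 672.4 CPM, and for Schwann cells and nerve 59.7 to 85.9 and 64.2 to 74.2 CPM.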

How the data were processed

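The files hold raw counts of reads for each Ensembl gene, as the authors deposited them, without scaling, in a separate table for each library. According to the submitters' processing notes the tools were Bowtie2 2.3.4.1 and featureCounts, with Subread 1.6.2 also named, and the builds GRCm38 and mm10. Which annotation release and strand setting were used, and how multi-mapping reads were treated, is not given in the sources used here. GENCODE M21 (GRCm38) gave names and positions for 54409 of 54532 genes, and promoter sequences came from RefSeq (GRCm38.p6). Replicates are numbered in accession order and are not paired.

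The count analysis used edgeR 4.0.16 in R 4.3.3: filterByExpr (minimum count 10, minimum total 15), TMM scaling and the robust quasi-likelihood F test, with Benjamini-Hochberg adjustment over 10691 genes and a threshold of 0.05. SE is the log2 fold change over the square root of F, and 95% intervals use the fit's degrees of freedom. The procedure was tested on simulated data. It missed most changes of the smallest size simulated, slightly below the difference of Prdx5. Most changes of the next size, above the difference of Prdx2 and below that of Qsox1, were missed as well. Some larger changes were also missed, and the procedure made more false calls than the threshold allows. A smaller share of genes was changed there than was called here, so these rates cannot be carried over to these data. A gene that was not called may still have changed by a small or moderate amount, and a call of a small change may be false. The kept genes held over 99.5% of each library's reads, and 3 reads correspond to 0.557 to 0.646 TMM-scaled CPM, which covers counting error only. Single genes were also tested by exact permutation of log2 CPM (prior count 2). In a check for duplicated libraries, the 12 library pairs of 1 genotype differed beyond sampling noise (chi-square per degree of freedom 2.33 to 7.96). No library was thus a copy of another, and all 8 were kept. The check does not look for outlying libraries.

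The members and the lists were chosen with earlier results of these data known. Named genes were all members, Gpcpd1, up to 3 changed genes of lowest p per related list, and the 5 genes closest to Qsox1 (predicted, pseudogene and sex-linked genes left out). Of 2 identifiers named Nnt, the one with reads was used. Alternatives were DESeq2 1.42.0, limma 3.58.1 voom, no robust estimation, 3 other scalings, 2 other filters, the library number as a covariate, and each library left out.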

Additional observations from a re-analysis of the deposited data

Results flagged for a closer look

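In 74 groups of 4 libraries (each named gene and 4 library measures, per genotype), 3 held a library far from the other 3; chance alone gives about 1 in 20 groups. Gpx3 stood at 188.0 CPM in control 3, against 204.1 to 207.4 CPM in the other controls. Ccs stood at 16.8 CPM in control 3, against 17.9 to 18.0 CPM. Pex13 stood at 5.47 CPM in control 2, against 6.85 to 7.11 CPM. In all 3 genes the knockout libraries lay outside the control range with the far library included, and none of the 10 members was among them.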

How the results depend on the processing

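The counts of higher (3 or 4) and lower (0) members stayed within 1.5 times of the main counts under all 17 alternatives. Qsox1, Prdx2 and Prdx5 passed the threshold under each of them. The count of related redox genes called higher, 11 in the main analysis, was 7 by DESeq2 and 6 with library totals alone, and 6 to 12 when each library was left out in turn; the cause was not tested. The sign of 2 members near 0 turned: with each library left out in turn the log2 fold change of Sod3 ran from -0.19 to 0.11 (0.11 without knockout 4) and that of Prdx1 from -0.0918 to 0.00997 (0.00569 without control 2 and 0.00997 without knockout 3). Sod1 passed the threshold in 5 alternatives (adjusted p 0.00554 to 0.0483) and Sod2 in 1. Over all genes, 948 were higher and 727 lower; library totals alone gave 829 and 901, and leaving out libraries gave 720 to 967 higher and 578 to 761 lower. Gpcpd1 stayed between -2.15 and -2.03 on the log2 scale. Hnmt was too low to test under the filter of 5 CPM in 4 libraries. A prior count of 0.5 in place of 2 changed no permutation p of the 10 members. No paired analysis was possible because the labels give no replicate numbers shared between genotypes. Depth limits Sod3 most, at 15 to 39 reads per library.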
